A study of Mus musculus with 20 samples.

Results

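The translation initiation factor genes are the mouse genes whose symbols begin with Eif1 to Eif6, and they were taken from the single-cell tables by that name alone, without pseudogenes. The rule found 56 of the 27916 genes used. It brought together 5 genes of the eIF1 and eIF1A group, 6 of eIF2 with eIF2A and eIF2D, 4 eIF2 kinases, 5 eIF2B subunits and 14 eIF3 subunits. It also held 3 eIF4A helicases, 8 cap-binding and 4E-binding genes, 5 genes of eIF4G, eIF4B and eIF4H, and 5 genes of eIF5, eIF5A, eIF5B and eIF6. The last member, Eif2c5, carries the prefix by name only: RefSeq lists it as a long non-coding RNA with an Argonaute synonym. The name rule itself uses no measured value, but it was set with earlier results of these data known.

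The study asked how loss of Tet2, a DNA-demethylating dioxygenase, changes CD8 T cells in tumours. Tet2-/- mice were crossed with OT-I mice, whose CD8 T cells carry a receptor for chicken ovalbumin, and wild-type or Tet2 knockout (Tet2KO) CD8 T cells were given by adoptive transfer to mice with B16-OVA, a melanoma line engineered to display that antigen. Cells from the tumours were collected on day 8 after transfer, from hosts that had or had not received anti-PD-L1, an antibody to a ligand of the inhibitory receptor PD-1. Each of the 4 combinations (wild-type cells without and with anti-PD-L1, then knockout cells without and with it) is 1 10x Genomics 3′ V2 library, so no comparison between them has a replicate. The sources used here do not give the strain and age of the mice, the number of animals in a library, the kind of Tet2 allele or the antibody dose. The labelled source was CD8+ tumour-infiltrating lymphocytes, yet each library also held macrophage-like and melanoma-like cells, named from their marker genes.

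Initiation factors bring the small ribosomal subunit, the initiator tRNA and the mRNA together and place the ribosome at the start codon. eIF2 delivers the initiator tRNA and is recharged with GTP by eIF2B, a step that the eIF2 kinases shut down under stress. eIF4E binds the mRNA cap, eIF4G is the scaffold beside it, the eIF4A helicases unwind the leader, and the large eIF3 complex bridges mRNA and ribosome. T cells raise protein synthesis when they are activated, and several of these genes are known targets of Myc, which binds E-box motifs.

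Promoters of 3 members are shown because the helicase pair Eif4a1 and Eif4a2 differed in opposite directions between the wild-type CD8 T cell libraries, and Eif4g1 encodes the scaffold that both helicases bind. Each sequence is the 250 bases before an annotated start site in RefSeq on GRCm38.p6, printed 5′ to 3′ on the gene's own strand, and capitals mark the E-box CACGTG. This motif is its own reverse complement, so a single search reads both strands. Eif4a1 is on the minus strand (chr11:69672424-69672673), Eif4g1 on the plus strand (chr16:20672477-20672726) and Eif4a2 on the plus strand (chr16:23107218-23107467). The Eif4g1 window ends inside the gene interval, which begins at chr16:20672720, so its positions count from a start site further downstream.
Eif4a1: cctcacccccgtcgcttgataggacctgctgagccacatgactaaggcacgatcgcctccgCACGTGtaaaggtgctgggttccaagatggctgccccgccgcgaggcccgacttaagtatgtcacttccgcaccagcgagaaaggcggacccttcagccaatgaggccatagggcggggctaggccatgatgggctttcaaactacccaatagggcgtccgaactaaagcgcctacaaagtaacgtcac
Eif4g1: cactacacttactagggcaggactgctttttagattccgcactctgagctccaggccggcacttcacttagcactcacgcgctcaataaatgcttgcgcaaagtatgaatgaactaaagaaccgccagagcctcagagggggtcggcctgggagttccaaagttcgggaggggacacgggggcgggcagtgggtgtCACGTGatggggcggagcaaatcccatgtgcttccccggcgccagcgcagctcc
Eif4a2: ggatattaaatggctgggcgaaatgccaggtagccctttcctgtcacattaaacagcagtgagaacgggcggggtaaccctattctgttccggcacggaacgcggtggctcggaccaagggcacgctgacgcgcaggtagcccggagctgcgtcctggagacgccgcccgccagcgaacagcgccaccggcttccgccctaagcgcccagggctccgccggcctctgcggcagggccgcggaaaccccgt
The E-box began at position -189 from the start site in Eif4a1 and at -54 in Eif4g1, and these letters were not in the window of Eif4a2. Of the 44 members with a window in the table, 9 held the motif (20.5%): Eif1b, Eif3f, Eif3k, Eif4a1, Eif4e, Eif4g1, Eif4h, Eif5a and Eif5a2. Of all 27025 genes with a window, 1854 held it (6.86%), and of 65 cytosolic ribosomal protein genes 5 did (7.69%). GC content was 58.8% in the first pair of windows and 66.4% in that of Eif4a2. A match is a description of the letters and no evidence of binding.

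The 4 libraries held 2384, 1680, 2312 and 1346 barcodes with 11835704 to 16209103 unique molecular identifiers (UMIs), and 1 to 10 barcodes were shared by any pair. After filters on genes per cell and mitochondrial share, 1125, 1320, 1548 and 1024 CD8 T cells remained in the order given above, which every series of 4 values below keeps. Macrophage-like cells numbered 212, 176, 409 and 182, and melanoma-like cells 928, 69, 190 and 49. The untreated wild-type library stood apart: 61.4% of its CD8 T cells had at least 10 mitosis-gene UMIs per 10000, against 21.2%, 37.9% and 27.4%, and melanoma markers in its CD8 T cells summed to 110.5 counts per 1000000 UMIs (CPM), against 18.8 to 33.0. Its CD8 T cells fell mostly in other clusters than those of the other libraries. Tet2 itself had 13.6, 15.8, 23.1 and 18.0 CPM, and where the deletion lies relative to the 3′ tags is not given, so these values do not check the genotype.

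In CD8 T cells the 56 members together took 1.53%, 1.26%, 1.43% and 1.36% of all UMIs. The untreated wild-type library was the highest and the treated wild-type library the lowest. Genes of cytosolic ribosomal proteins took 29.5%, 32.0%, 31.2% and 30.2% in the same cells, with the opposite order at both ends. Averaged over the 4 libraries, 44 members reached 20 CPM and 12 stayed below it. Eif4e1b, Eif4ebp3 and Eif2c5 had no UMI in any CD8 T cell of the 4 libraries. Since each 3′ tag counts a molecule once, CPM were not divided by gene length, and they describe the mRNA and not the proteins or their phosphorylation.

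**Figure D1:**
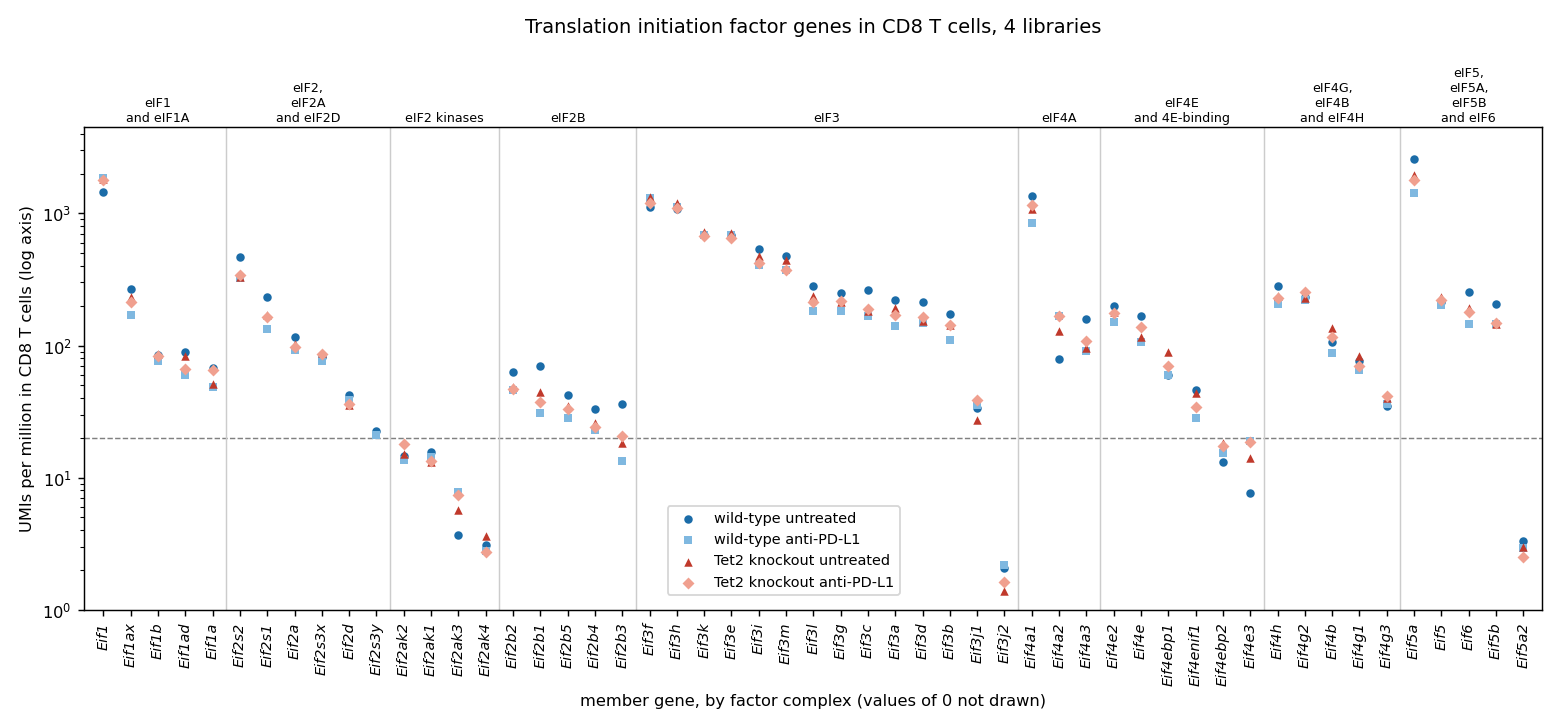
Level of each member in CD8 T cells (y axis, CPM on a log scale), grouped by complex, with 1 point for each of the 4 libraries and a dashed line at 20 CPM. Eif5a, Eif1, Eif3f and Eif3h lie above 1000 CPM in every library, and the eIF2 kinases, Eif3j2 and Eif5a2 below 20 CPM.

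The most abundant members, Eif5a and Eif1, belonged to the eIF5 and eIF1 groups. Eif5a, the hypusine-carrying factor that helps ribosomes past difficult peptide bonds, had 2582, 1422, 1966 and 1795 CPM. The untreated wild-type library was the highest and the treated wild-type library the lowest. Eif1, which guards start-codon recognition, had 1462, 1839, 1823 and 1779 CPM, with the untreated wild-type library the lowest. Eif1ax, the X-linked gene for eIF1A, had 267, 169, 235 and 213 CPM, and its near copy Eif1a had 67.1, 48.4, 50.9 and 65.4. Reads of Eif1a and Eif1ax may be split uncertainly between the pair. Eif1ad, a nuclear protein with an eIF1A-like domain, had 89.1, 59.4, 83.2 and 65.9 CPM, with both untreated libraries above both treated ones. Eif1b, a close relative of Eif1, lay between 76.5 and 86.3 CPM. Eif5, the GTPase-activating protein of eIF2, lay between 201 and 232 CPM in the 4 libraries, and Eif5a2, the second eIF5A gene, between 2.5 and 3.3. Eif6, which keeps the large subunit from joining too early, had 256, 146, 194 and 180.5 CPM, and the untreated wild-type library was again the highest.

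The eIF3 complex gave the largest sum, 6015, 5538.5, 6033 and 5544 CPM. Its most abundant subunit, Eif3f, had 1124, 1297, 1321 and 1193 CPM, and Eif3h had 1073, 1114, 1198 and 1098. In both the untreated wild-type library was the lowest. Other subunits ran the opposite way: Eif3a, the largest scaffold subunit, had 220.1, 140.4, 191 and 169 CPM, and Eif3b, its RNA-binding partner, had 172, 110.1, 143 and 143. Eif3c, which contacts eIF1 and eIF5, had 261, 167, 183 and 189 CPM, and Eif3l had 280.4, 184, 236.5 and 214. For these 4 subunits the untreated wild-type library was the highest and the treated wild-type library the lowest. Eif3i, a WD-repeat subunit, had 534, 408, 479.6 and 421 CPM, with both untreated libraries above both treated ones. Eif3e (647 to 713 CPM) and Eif3k (674 to 728) varied less. Eif3m lay between 373 and 477 CPM, Eif3g between 181 and 249, and Eif3d between 147 and 213. Eif3j1 lay between 27.5 and 38.4 CPM and its near copy Eif3j2 between 1.4 and 2.2, and reads between the pair may be assigned uncertainly.

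Among the eIF2 subunits, Eif2s2 (beta) was the most abundant with 466, 322, 332 and 339 CPM. Eif2s1 (alpha), which carries the serine that the stress kinases phosphorylate, had 235, 134, 169.9 and 164 CPM. In both, the untreated wild-type library was above the other 3. Eif2a and Eif2d, which can deliver initiator tRNA without eIF2, lay between 92.7 and 116 CPM and between 35.3 and 42.4 CPM. The gamma subunit is encoded on both sex chromosomes. Eif2s3x (chrX:94188709-94212651) had 81.2, 75.9, 88.2 and 87.0 CPM, and Eif2s3y (chrY:1010562-1049134) had 22.6 and 20.9 CPM in the wild-type libraries and no UMI in either knockout library. These were 110 and 172 UMIs of Eif2s3y in wild-type cells against 0 in knockout cells. Set against a floor of 3 UMIs in a library, the knockout libraries were at least as far below as a log2 fold of -5.91 untreated and -5.80 under anti-PD-L1. The sex of the donor and host mice is not in the labels used here. Genotype and the presence of Eif2s3y therefore cannot be told apart in any genotype comparison of CD8 T cells below. The Eif2s3y values given here are those of CD8 T cells only.

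The guanine nucleotide exchange factor eIF2B was measured through all 5 of its subunits, each between 13.4 and 70.1 CPM. Eif2b1 (alpha), part of the regulatory portion that senses phosphorylated eIF2, had 70.1, 30.8, 44.8 and 37.3 CPM. Eif2b3 (gamma), the partner of the catalytic subunit, had 36.2, 13.4, 18.3 and 20.8. The untreated wild-type library was the highest and the treated wild-type library the lowest for both. Eif2b2 (beta), the subunit with the highest mean, had 62.5, 46.2, 48.8 and 46.9 CPM. Eif2b4 (delta) had 33.3, 22.9, 26.1 and 24.1, and Eif2b5 (epsilon), which holds the catalytic domain, had 42.6, 28.2, 34.6 and 33.3. All 5 subunits shared the same highest and lowest library. The eIF2 kinases were scarce: Eif2ak1 (HRI) had 15.6, 14.2, 13.2 and 13.3 CPM, Eif2ak2 (PKR) had 14.6, 13.6, 15.1 and 18.1, Eif2ak3 (PERK) lay between 3.7 and 7.8, and Eif2ak4 (GCN2) between 2.7 and 3.6. None reached a mean of 20 CPM in CD8 T cells, so no kinase entered the CD8 comparisons between libraries.

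In the cap-binding complex, Eif4a1, the major helicase, had 1349.9, 841, 1077 and 1153 CPM, and Eif4a2, its close relative, had 79.2, 167, 128 and 169. The untreated wild-type library was the highest for Eif4a1 and the lowest for Eif4a2. Eif4a3, a helicase of the exon junction complex and not of initiation, had 159.8, 90.5, 95.9 and 109 CPM, with the untreated wild-type library well above the other 3. Eif4e, the cap-binding protein, had 167, 107, 115 and 137 CPM, and Eif4e2, a cap-binding repressor, had 198, 152, 181 and 176. Eif4h, a helicase cofactor, had 284, 205, 236 and 227 CPM, the highest mean among eIF4G, eIF4B and eIF4H. Eif4g2 (223 to 256 CPM), Eif4g1 (64.7 to 83.8) and Eif4g3 (34.8 to 41.8) differed less among the libraries. Eif4ebp1, the eIF4E inhibitor that mTORC1 releases by phosphorylation, had 60.3, 59.6, 89.5 and 69.6 CPM, and here the untreated knockout library was the highest. Eif4enif1, the transporter that carries eIF4E into the nucleus, had 46.1, 28.2, 43.9 and 34.1 CPM, with both untreated libraries above both treated ones. Eif4e3, an atypical cap-binding protein, had 7.6, 18.9, 14.1 and 18.6 CPM, and Eif4ebp2, a second 4E-binding protein, lay between 13.2 and 18.2.

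The comparisons between libraries have 1 library on each side and carry no p-value. Each fold is given as a log2 ratio of CPM with a 95% exact interval that covers counting error only. A member was counted when it was at least 1.5-fold apart, and the share of all genes past 20 CPM that were as far apart is given beside each count. The untreated genotype and wild-type treatment comparisons share the untreated wild-type library, and each of the other 3 libraries also enters a pair of comparisons, so these comparisons are not independent.

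Without treatment, Eif4a2 was higher in knockout than in wild-type CD8 T cells, and Eif2b1, Eif2b3 and Eif4a3 were lower. These 4 of 44 members passed 1.5-fold, beside 14.6% of all genes (7.72% higher and 6.84% lower). The log2 fold was 0.69 for Eif4a2 (0.52 to 0.87), -0.98 for Eif2b3 (-1.31 to -0.66), -0.65 for Eif2b1 (-0.87 to -0.43) and -0.74 for Eif4a3. All 5 eIF2B subunits lay below 0 and their median was -0.36. Over the 44 members the median log2 fold was -0.21, beside -0.10 over all genes. Of the members 31 lay below 0, beside 2816 of all 4623 genes past 20 CPM. Eif5b, the GTPase of subunit joining, was at -0.52, and Eif4ebp1 was at 0.57. In cells with few mitosis UMIs the comparison gave 2 members higher and 2 lower, and in cells with many 1 higher and 6 lower, beside 16.7% and 15.5% of all genes. With trimmed mean of M-values (TMM) scaling, 2 were higher (Eif4a2 and Eif4ebp1) and 2 lower (Eif2b3 and Eif4a3). Without cycling-like clusters, which left 34 untreated wild-type cells, the balance turned to 11 higher and 1 lower, beside 40.4% of all genes. There Eif2b1 was at 0.21, Eif4a3 at -0.014, Eif2b3 at -0.76 and Eif4a2 at 1.08.

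Under anti-PD-L1, 1 of 44 members passed 1.5-fold between knockout and wild-type, beside 2.62% of all genes (1.10% higher and 1.51% lower). That member was Eif2b3, at a log2 fold of 0.64 (0.28 to 1.00), and with TMM scaling it was 0.58, below the threshold. Among the more abundant members Eif4a1 was at 0.45 (0.41 to 0.50), Eif4b (a helicase cofactor) at 0.39, Eif3b at 0.38, Eif4e at 0.36 and Eif5a at 0.34. The median over members was 0.19, beside 0.09 over all genes, and 38 of 44 lay above 0, beside 3147 of all 4623 genes past 20 CPM. All 5 eIF2B subunits lay above 0. Eif4a2 differed little, at 0.01 (-0.10 to 0.12), and Eif1 and Eif3f were at -0.05 and -0.12.

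Anti-PD-L1 in wild-type cells went with the widest differences. Of 44 members, 16 were lower and Eif4a2 was higher, beside 31.8% of all genes (20.5% lower and 11.2% higher). The log2 fold of Eif4a2 was 1.08 (0.91 to 1.25), and that of Eif4a1 was -0.68 (-0.73 to -0.63). Eif2b3 was at -1.44 (-1.79 to -1.08), Eif2b1 at -1.19 (-1.43 to -0.95) and Eif5a at -0.86 (-0.90 to -0.82). Eif4a3 was at -0.82, Eif2s1 and Eif6 at -0.81 each, Eif4enif1 at -0.71, and Eif1ax, Eif3a and Eif3b at -0.65 each. Eif3c and Eif4e were at -0.64 each, Eif3l at -0.61, and Eif1ad and Eif2b5 at -0.59 each. By complex, 3 of 5 eIF2B subunits, 4 of 13 eIF3 subunits, 2 of 5 genes of the eIF1 group and 2 of 4 of the eIF5 and eIF6 group were lower, and none of the 5 of eIF4G, eIF4B and eIF4H. The members' median was -0.46, beside -0.18 over all genes.

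Several measured features moved with this comparison. The share of CD8 T cells with many mitosis UMIs was 61.4% untreated and 21.2% treated, and median depth was 3750 and 5437.5 UMIs per cell. Restricted to cells with few mitosis UMIs, 9 members were lower and 1 higher, beside 30.9% of all genes. Restricted to cells with many, 15 were lower and 1 higher, beside 26.6%. TMM scaling moved the median of all genes by 0.14 and left 6 members lower (Eif2s1, Eif2b1, Eif2b3, Eif4a3, Eif5a and Eif6) and Eif4a2 higher, beside 28.4% of all genes (13.3% lower and 15.1% higher). Eif4a1 was at -0.56 in cells with few mitosis UMIs, -0.78 in cells with many and -0.55 with TMM scaling. Without cycling-like clusters the balance turned to 7 members higher and 3 lower, beside 42.9% of all genes, with Eif4a2 among the higher. The part of cell clusters, depth and carried-over melanoma RNA in these differences was not tested.

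In knockout cells no member was 1.5-fold apart between treated and untreated, beside 4.0% of all genes (2.90% higher and 1.10% lower). The 44 log2 folds ran from -0.37 to 0.48, with a median of -0.06 beside -0.01 over all genes. Eif4a2 was at 0.40 (0.28 to 0.52), Eif4a1 at 0.10 (0.05 to 0.14), Eif4e at 0.25 and Eif4a3 at 0.18. Eif4ebp1 and Eif4enif1 were at -0.36 and -0.37. With 1 library in each group there is no test of whether the response to anti-PD-L1 differed between the genotypes.

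**Figure D2:**
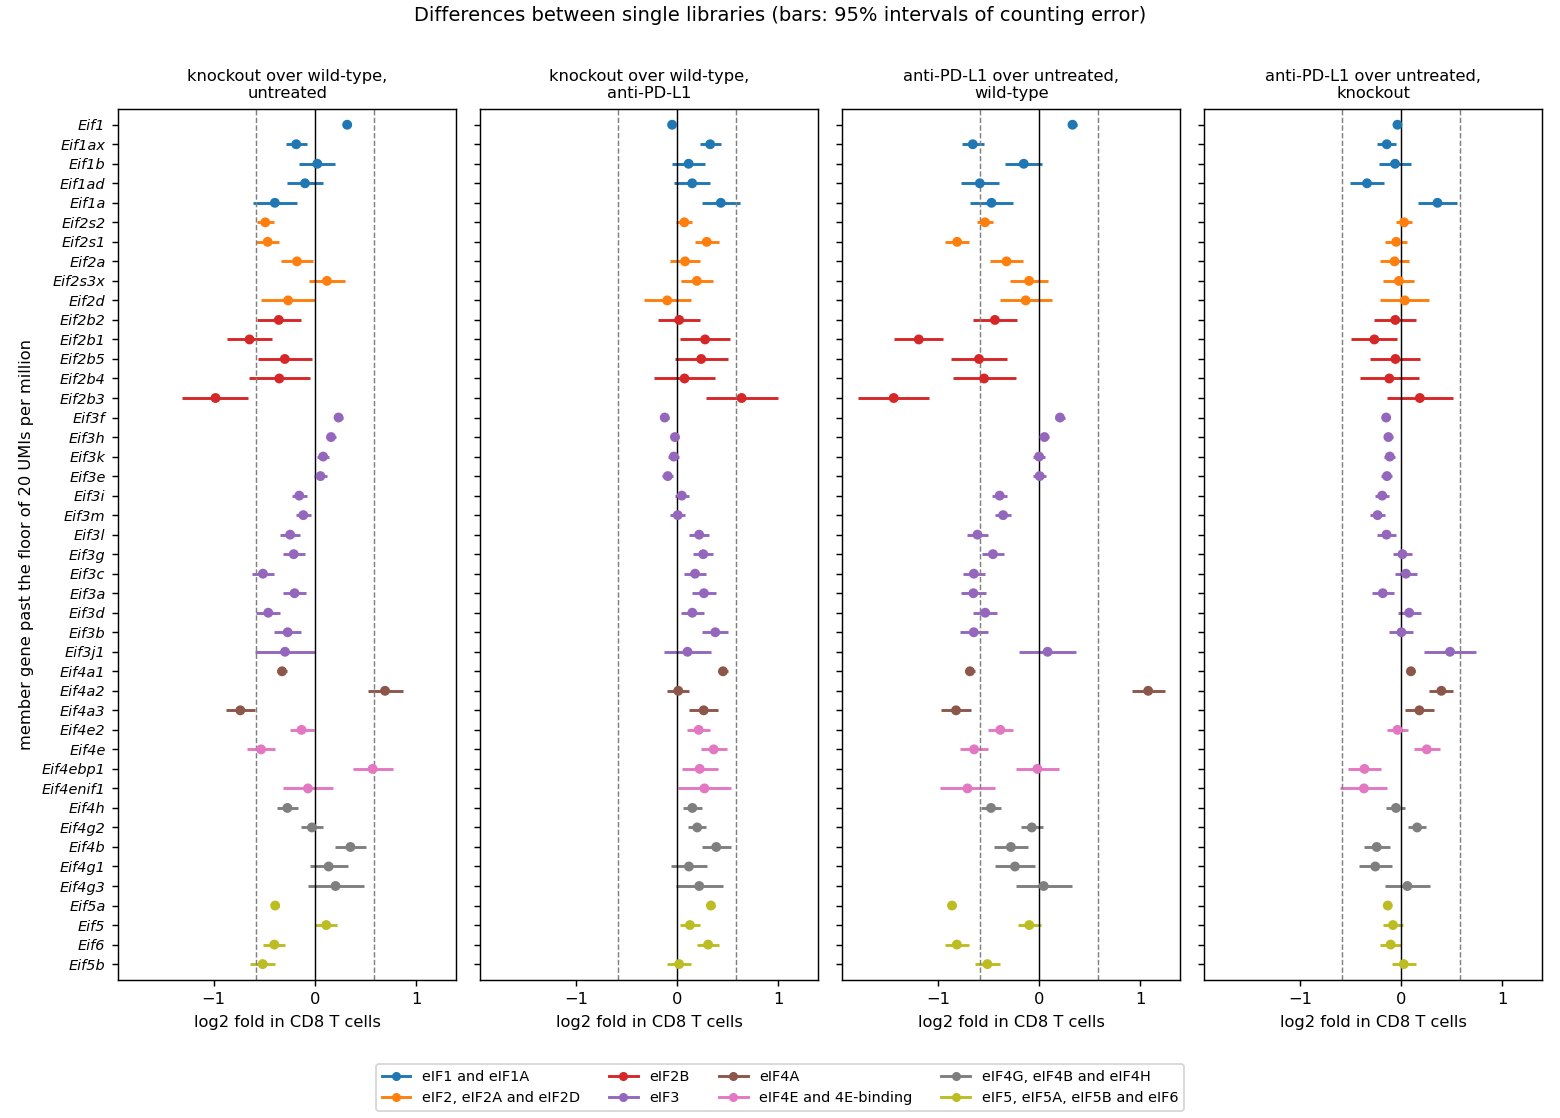
Log2 fold of each member in CD8 T cells in the 4 comparisons, grouped by complex, with dashed lines at 1.5-fold in each direction. The anti-PD-L1 comparison in wild-type cells is shifted to the left with a median of -0.46, and that in knockout cells stays between -0.37 and 0.48.

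The balance of the helicase pair showed these differences within a library, where scaling drops out. In CD8 T cells there were 17.0 UMIs of Eif4a1 for each UMI of Eif4a2 in the untreated wild-type library (95% interval 15.4 to 18.9), 5.03 in the treated wild-type library (4.74 to 5.33), 8.42 in the untreated knockout (7.89 to 8.99) and 6.83 in the treated knockout (6.45 to 7.24). No interval overlapped another. Over the other ways of choosing, scaling and weighting the CD8 T cells, except leaving out the cycling-like clusters, the log2 fold of Eif4a2 with treatment in wild-type cells lay between 0.91 and 1.22, and between genotypes without treatment between 0.61 and 0.77. In those settings the wild-type treatment fold of Eif4a1 lay between -0.78 and -0.55. Leaving out the cycling-like clusters kept 34 cells of the untreated wild-type library, and there the wild-type treatment folds were 0.25 for Eif4a1 and 1.37 for Eif4a2, and the untreated genotype folds 0.64 and 1.08. Eif4a1 thus changed sign in both comparisons and Eif4a2 in neither. In macrophage-like cells the ratio was 14.0, 5.79, 6.31 and 9.76, and in melanoma-like cells 5.56, 3.66, 2.51 and 1.42. The untreated wild-type library had the highest ratio in each of the 3 cell classes.

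**Figure D3:**
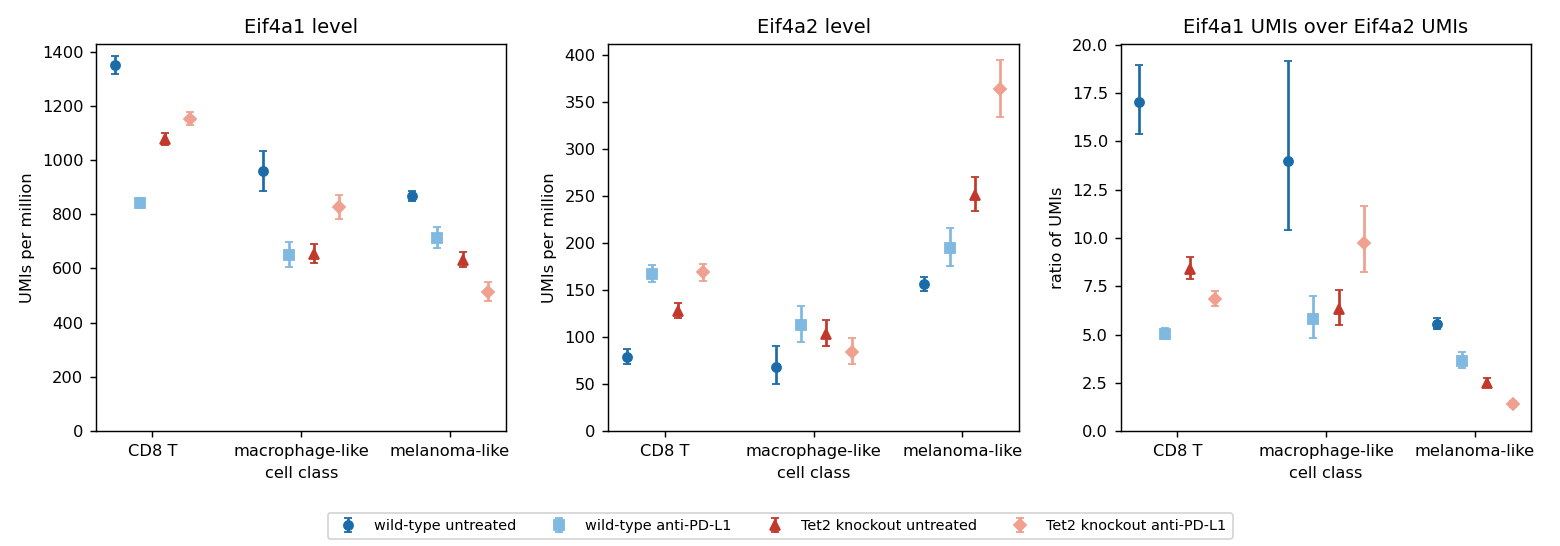
Levels of Eif4a1 and Eif4a2 (CPM) in each of the 4 libraries for CD8 T, macrophage-like and melanoma-like cells, with 95% exact Poisson intervals for counting error. In CD8 T cells Eif4a1 falls between 841 and 1349.9 CPM and Eif4a2 between 79.2 and 169.

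Cell classes were compared with the libraries as a block, which gives n = 4 libraries and a test by edgeR's quasi-likelihood method with Benjamini-Hochberg adjustment over all genes. Macrophage-like cells had less of most initiation factors than CD8 T cells of the same libraries: 35 of 52 tested members were lower, 7 were higher and 10 were not called, beside 31.5% of all genes lower and 30.7% higher (62.2% together). Scaled by library totals, 38 were lower and 4 higher (36.7% and 27.5% of all genes), and 39 of the 42 calls were shared. All 13 tested eIF3 subunits, all 5 tested genes of the group of eIF2, eIF2A and eIF2D, and all 5 eIF2B subunits were lower under both scalings. The summed members took 9189, 7529, 7927 and 7834 CPM in macrophage-like cells and 15309.7, 12609, 14276 and 13616 in CD8 T cells, so the classes did not overlap.

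Eif4ebp1 ran against this. It had 326, 274, 322 and 281 CPM in macrophage-like cells, and the highest CD8 library had 89.5. The means were 301 ± 26.9 and 69.7 ± 13.9 CPM (SD, n = 4), with a log2 fold of 2.24 and an edgeR adjusted p of 1.15e-10. The fold within single libraries lay between 1.85 and 2.43. Eif4e3 was also higher, with 36.1 ± 0.797 against 14.8 ± 5.26 CPM (SD, n = 4; log2 fold 1.40, edgeR adjusted p = 7.36e-06). So was Eif2ak2, the interferon-induced kinase that senses double-stranded RNA, with 28.3 ± 5.24 against 15.3 ± 1.93 CPM (SD, n = 4; log2 fold 1.03, edgeR adjusted p = 1.99e-05). The classes overlapped for neither of them. Eif3l was the furthest below, with 75.4 ± 14.6 against 229 ± 40.6 CPM (SD, n = 4; log2 fold -1.48, edgeR adjusted p = 1.74e-08). Eif5a had 852 ± 175 against 1941 ± 484 CPM (SD, n = 4; log2 fold -1.04, edgeR adjusted p = 2.69e-06). CD8 T cell markers summed to 337 to 717 CPM in macrophage-like cells and 5542.3 to 7456 in CD8 T cells, and the part of such carried-over RNA in the folds was not tested.

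Melanoma-like cells differed from CD8 T cells with both signs, and the balance depended on scaling. With TMM factors 30 of 52 members were lower and 13 higher, beside 35.5% and 37.6% of all genes (73.1% together). With library totals 16 were lower and 18 higher, beside 23.9% and 49.3%. The change of scaling moved the median of all genes by 0.38, and 29 of the 43 calls were shared. Among 13 tested eIF3 subunits, 12 were lower and Eif3a higher with TMM, and 8 were lower, 1 higher and 4 not called with library totals. Eif3i had 258, 194, 186 and 190.3 CPM in melanoma-like cells and at least 408 in every CD8 library (207 ± 34.2 against 461 ± 58.0, SD, n = 4; log2 fold -1.54 with TMM and -1.15 with library totals, edgeR adjusted p = 1.45e-09 with TMM).

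Eif4ebp1 was higher in melanoma-like cells under both scalings, with 266, 274, 292 and 251 CPM (log2 fold 1.58 with TMM and 1.97 with library totals, edgeR adjusted p = 3.93e-09 with TMM). Eif4e3 had 40.2, 54.2, 52.9 and 58.8 CPM in these cells against at most 18.9 in CD8 T cells (log2 fold 1.43, edgeR adjusted p = 8.65e-07 with TMM). Eif5 had 513, 573, 562 and 501 CPM against at most 232 (log2 fold 0.92, edgeR adjusted p = 7.88e-07 with TMM). Eif4a1 was lower at -1.08 with TMM and -0.69 with library totals, and Eif4a2 higher at 0.44 and 0.84 (edgeR adjusted p = 1.28e-06 and 0.0251 with TMM). CD8 T cell markers summed to 24.3 to 59.9 CPM in melanoma-like cells. Eif2c5, the non-coding member (chrX:140776199-140796944), had 13.1, 22.9, 19.1 and 21.7 CPM in melanoma-like cells and no UMI in CD8 T or macrophage-like cells of any library. Against a floor of 3 UMIs in a CD8 library, it was higher by a log2 fold of at least 4.41 to 5.97 over the 4 libraries.

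**Figure D4:**
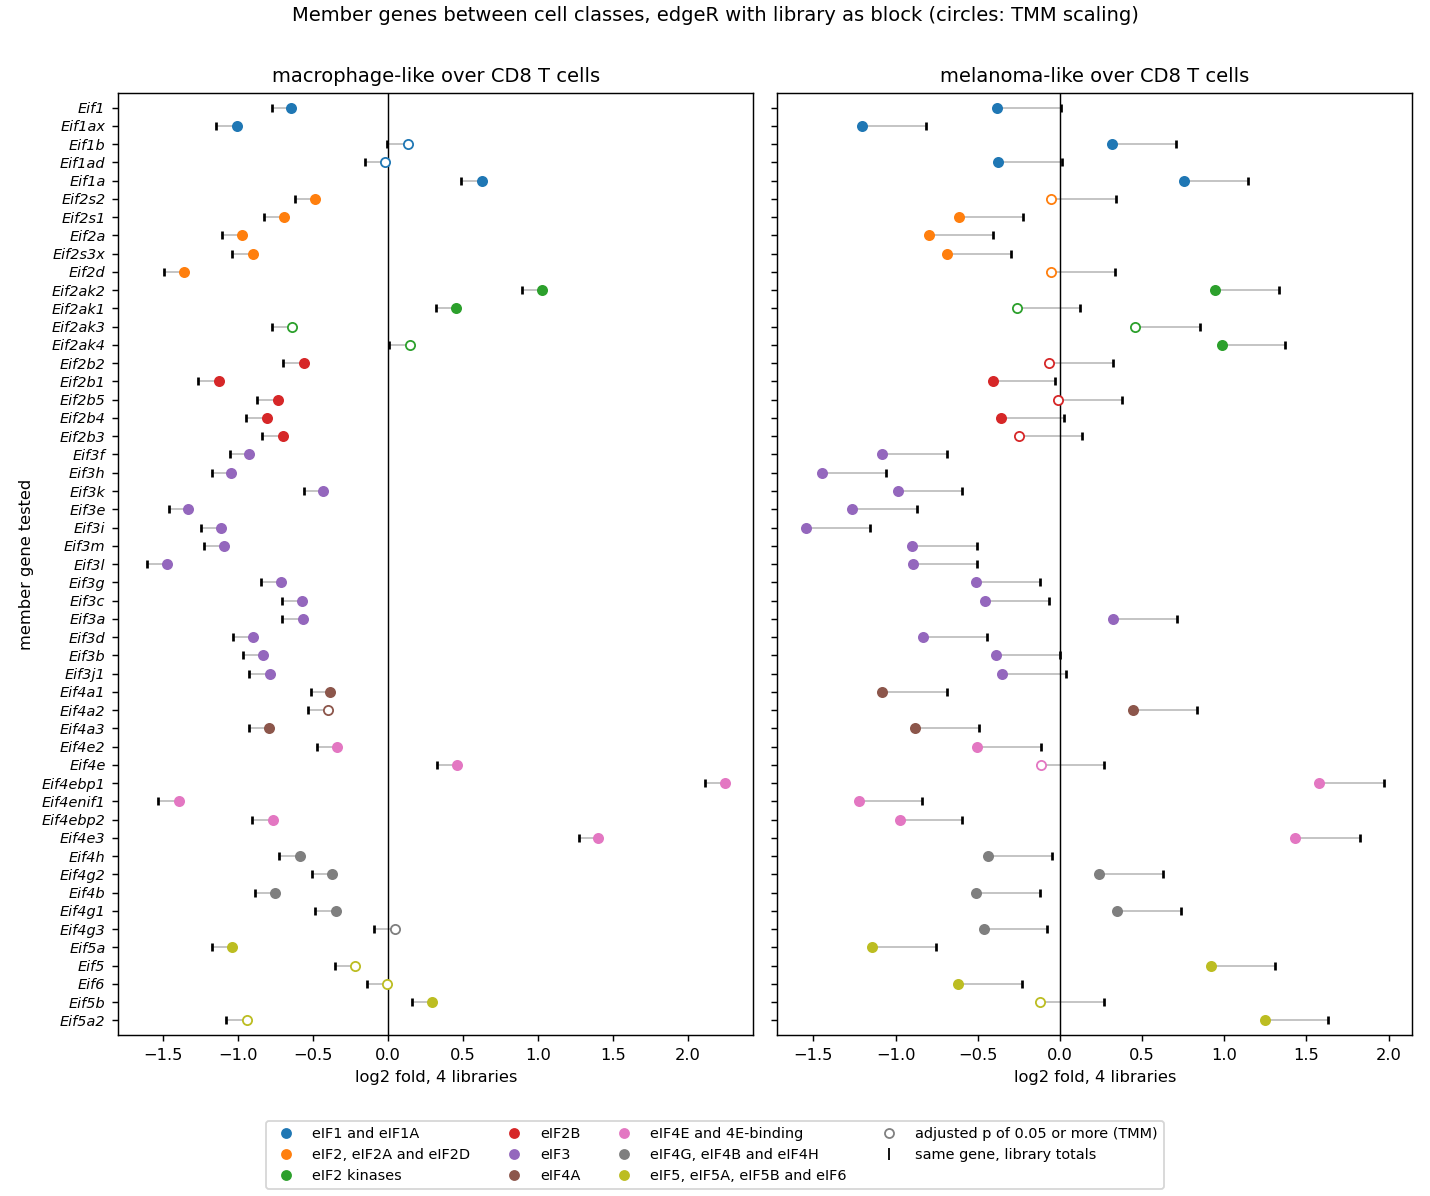
Log2 fold of each tested member except Eif2c5 in macrophage-like and in melanoma-like cells over CD8 T cells of the same libraries. Open circles have an edgeR adjusted p of at least 0.05 and black ticks show the fold with library totals, and Eif4ebp1 lies furthest to the right in both panels at 2.24 and 1.58.

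The same library comparisons in the other classes rested on fewer cells. In macrophage-like cells, with 39 members past 20 CPM, 2 were higher and 5 lower between untreated genotypes, beside 24.5% of all genes (12.3% higher and 12.2% lower). Under anti-PD-L1 2 were higher and 0 lower in knockout, beside 11.9% (6.98% and 4.96%). With treatment 1 was higher and 5 lower in wild-type libraries, beside 29.7% (14.0% and 15.8%), and 2 and 0 in knockout libraries, beside 9.36% (6.04% and 3.33%). Eif4a2 was among those higher in the untreated genotype comparison at 0.60 and in the wild-type treatment comparison at 0.71, as it was in CD8 T cells. Eif2s1 and Eif5a were at -0.96 and -0.72 with treatment in macrophage-like cells of the wild-type libraries. For these cells wild-type and knockout name the transferred T cells of the library. The origin of the differences was not tested.

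In melanoma-like cells, with 46 members past 20 CPM, 1 was higher and 3 lower between untreated genotypes, beside 10.6% of all genes (6.37% higher and 4.27% lower). Under anti-PD-L1 the counts were also 1 and 3, beside 15.4% (6.68% and 8.74%). With treatment 0 were higher and 1 lower in wild-type libraries, beside 6.27% (3.52% and 2.74%), and 0 and 2 in knockout libraries, beside 7.37% (2.65% and 4.72%). Eif4a2 was the member higher in both genotype comparisons, at 0.69 and 0.90, and Eif2b1 was lower in both, at -0.62 and -0.71. Eif2b3 was at -1.32 between genotypes under anti-PD-L1 and at -0.91 with treatment in knockout. The treated libraries held 69 and 49 melanoma-like cells.

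Cycling-like CD8 T cells were those in clusters with at least 0.5 times the mitosis-gene level of the highest CD8 cluster. They were compared with the other CD8 T cells of the same library. With edgeR's quasi-likelihood test 9 of 52 members were higher and 10 lower, beside 17.4% and 15.6% of all genes (33.0% together), and with library totals 12 were higher and 9 lower, beside 18.7% and 14.4%. Eif1ad had 88.0 ± 7.59 against 45.7 ± 16.3 CPM (SD, n = 4; log2 fold 0.71, edgeR adjusted p = 9.1e-12). Eif4a2 was lower at -0.41 (edgeR adjusted p = 2.07e-06), Eif2ak2 at -0.59 and Eif3e at -0.41, and Eif4g1 was higher at 0.40. The other cells of the untreated wild-type library numbered 34. When cells were divided by their own mitosis UMIs, 2 members were higher (Eif1ad at 0.37 and Eif4g2 at 0.24) and 7 lower (Eif4a2 at -0.37, Eif3e at -0.40 and 5 other eIF3 subunits), beside 10.7% and 9.18% of all genes. Without the library block 2 calls remained, beside 13.0% of all genes. With the first barcode listing 17 calls were made, beside 14.5%, of which 3 were calls of the same direction as here, and no call held in every setting tried. In that listing cycling-like clusters held 14.7%, 14.8%, 20.6% and 21.4% of CD8 T cells, against 97.0%, 22.7%, 47.4% and 32.9% here. The contrast there thus divided the CD8 T cells differently. The division also moved within the listing used here. With a stricter cell filter (at least 1000 genes, at most 5% mitochondrial UMIs) the shares were 42.4%, 19.5%, 26.2% and 25.5%. Neither the cycling contrast nor the folds without cycling-like clusters were run on that division.

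Of 37 other translation genes, 24 passed 20 CPM in CD8 T cells. Between untreated genotypes 5 were higher and 0 lower, beside 7.72% and 6.84% of all genes: Ppp1r15a (GADD34, which recruits the phosphatase that reverses eIF2 phosphorylation) with 40.1 CPM in wild-type and 114 in knockout, Ddit3 (CHOP, a stress-response transcription factor) at 1.24, Myc at 0.87, Mknk2 (an eIF4E kinase) at 0.68 and Pdcd4, an inhibitor of the eIF4A helicases, at 0.60. With anti-PD-L1 in wild-type cells 3 were higher and 2 lower, beside 11.2% and 20.5% of all genes: Ppp1r15a at 1.31, Pdcd4 at 1.22 and Ddit3 at 1.13, and Gspt1 (the release factor eRF3a) at -0.84 and Dohh at -0.80. The list held 9 integrated stress response genes, of which 3 passed 20 CPM. Besides Ppp1r15a and Ddit3, the remaining gene was at 0.03 between untreated genotypes and 0.02 with anti-PD-L1 in wild-type cells. Pdcd4 had 41.3, 96.6, 62.9 and 51.7 CPM, with the untreated wild-type library the lowest. Dohh and Dhps make the hypusine of eIF5A, and Dhps was at -0.09. Between genotypes under anti-PD-L1 Pdcd4 was lower at -0.90, and with treatment in knockout cells no gene of the list was 1.5-fold apart.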

How the data were processed

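Counts of UMIs per gene and cell were deposited by the authors in 4 tables, 1 per library, and taken as they stand; each table held 2 listings of its barcodes, and the listing with an extra suffix was used, with the other as an alternative. The submitters' processing notes name mm10 (GRCm38) as the build and, with no role, HTSeq, HISAT2, Trim Galore 0.5.0, bedtools, Bowtie2, DESeq2 and Genrich 0.5. How reads were assigned to genes and which barcodes were called cells is not given in the sources used here. The series has 20 samples, and the 16 of other assays were not analysed here. Gene columns absent from any of the 4 tables (659 to 709) were left out; they held at most 0.00281% of UMIs.

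Cells with at least 500 genes and at most 10% mitochondrial UMIs were kept. Doublets were not called. Cells of all libraries were clustered (scanpy 1.11.5, igraph 0.11.9, Python 3.11.15; 2000 variable genes without members, other translation genes and ribosomal protein genes, 30 components, 15 neighbours, Leiden resolution 1) and clusters were named from marker lists. CPM are UMIs summed over the cells of a class, divided by all UMIs of those cells and multiplied by 1000000. Folds between libraries carry exact conditional binomial intervals and levels exact Poisson intervals (scipy 1.17.1). PCR copies are collapsed by UMIs, and the intervals cover counting error only. Class contrasts used edgeR 4.0.16 in R 4.3.3 (quasi-likelihood, TMM, library block, filterByExpr, 12 sums, or 8 for cycling), with an adjusted p under 0.05 as the threshold. The fit was tested on simulated data. The 12 sums are classes of the same 4 libraries, and the block takes up differences in level between libraries. The p-values therefore rest on how class differences vary across libraries that also differ in genotype and treatment. The 3 classes share 1 estimate of this spread. DESeq2 1.42.0, a marker gate, other filters, other scalings and each library left out were tried as alternatives.

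All members and lists were chosen with earlier results of these data known. Values in all 4 libraries are given for the most abundant member of each complex, members past 1.5-fold in any CD8 comparison (at most 15), the 3 members furthest apart in each class contrast, and the Eif2s3x and Eif4a pairs, 29 genes in all. Other members named with values (such as Eif3h, Eif3e, Eif5, Eif4ebp2, Eif4b and the kinases) were picked after their values were seen, and the few-mitosis and many-mitosis groups, the library totals of the class contrasts and the omission of globin-rich cells were added as alternatives after seeing the data. Promoter windows come from RefSeq on GRCm38.p6, and all 56 members matched a RefSeq symbol.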

Additional observations from a re-analysis of the deposited data

Results flagged for a closer look

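In 6 cases a member differed in opposite directions in the untreated and treated, or wild-type and knockout, CD8 T cells, with intervals for counting error on either side of 0. The cases of Eif4a3 by treatment and by genotype are a single quantity read in either direction. With 1 library a group the difference between the folds was not tested. Anti-PD-L1 went with a log2 fold of -0.68 for Eif4a1 in wild-type and 0.10 in knockout cells, a difference of 0.78. For Eif4a3 the treatment folds were -0.82 and 0.18, a difference of 1.00, and for Eif4e they were -0.64 and 0.25, a difference of 0.90. Knockout over wild-type gave a log2 fold of -0.65 untreated and 0.28 under anti-PD-L1 for Eif2b1, a difference of 0.92. For Eif2b3 the genotype folds were -0.98 and 0.64, a difference of 1.62, and for Eif4a3 they were -0.74 and 0.26, a difference of 1.00. Each of the 6 rests on the untreated wild-type library, the one with 61.4% of CD8 T cells rich in mitosis UMIs. Without cycling-like clusters, which left 34 cells of that library, Eif4a1 was at 0.25 and 0.09 with treatment and Eif2b1 at 0.21 and 0.27 between genotypes, no longer opposed. There Eif4a3 was at -0.13 and 0.13 with treatment and at -0.014 and 0.24 between genotypes.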

How the results depend on the processing

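The number of members 1.5-fold apart between untreated genotypes was 4, and became 2 with a floor of 50 CPM, 7 with a floor of 5 CPM and 7 in cells with many mitosis UMIs. Without cycling-like clusters it became 12, turned from 1 higher and 3 lower to 11 higher and 1 lower (40.4% of all genes, against 14.6%). The log2 fold of their summed UMIs was -0.10, and became -0.019 with TMM, -0.063 with equal weight per cell, -0.032 in cells with few and -0.15 in cells with many mitosis UMIs, and reversed to 0.12 without cycling-like clusters. Between genotypes under anti-PD-L1 the count was 1, and 0 with TMM, with a floor of 50 CPM, without cycling-like clusters and in cells with few mitosis UMIs, and 2 with a floor of 5 CPM; the summed log2 fold was 0.11, and 0.049 with TMM. For treatment in wild-type cells the count was 17, and 7 with TMM and 10 in cells with few mitosis UMIs. Without cycling-like clusters it was 10, turned from 1 higher and 16 lower to 7 higher and 3 lower (42.9% of all genes, against 31.8%). Its summed log2 fold was -0.28, and -0.14 with TMM, -0.067 without cycling-like clusters, -0.23 with equal weight, -0.22 with few and -0.35 with many mitosis UMIs. For treatment in knockout cells the sum was -0.07, and -0.090 in cells with many mitosis UMIs.

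Without cycling-like clusters, which left 34 untreated wild-type cells, the untreated genotype fold of Eif2b1 reversed to 0.21, and the wild-type treatment folds reversed for Eif1ad (0.95), Eif3a (0.33), Eif3b (0.77), Eif4a1 (0.25), Eif4enif1 (1.08) and Eif6 (0.55). With library totals the melanoma-like folds reversed for Eif2b5 (0.38), Eif2b2 (0.32), Eif1ad (0.011), Eif2d (0.33), Eif3j1 (0.035), Eif2b4 (0.023), Eif1 (0.0063) and Eif2s2 (0.34).

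The cycling contrast made 19 calls (33.0% of all genes), against 8 with DESeq2 (16.1%), 2 without the library block (13.0%), 9 with cells split by their own mitosis UMIs (19.9%) and 12 to 22 with each library left out (22.6% to 33.7%). The first barcode listing made 17 calls (14.5%), 3 of them shared in direction, and there the folds reversed for Eif4g2 (-0.14), Eif2s1 (-0.50), Eif3h (0.037), Eif2ak2 (0.020), Eif3a (-0.43), Eif6 (-0.38), Eif2b1 (-0.55), Eif2s3x (-0.43), Eif4g1 (-0.56), Eif3b (-0.47), Eif4b (-0.16), Eif4a1 (-0.33), Eif1ax (-0.25) and Eif5a (-0.52), and without the block for Eif2b3 (0.044). In the first listing cycling-like clusters held 14.7% to 21.4% of the CD8 T cells of a library, against 22.7% to 97.0% in the listing used. The contrast there thus divided the CD8 T cells differently, and the cause of these reversals was not tested. With the stricter cell filter the listing used gave shares of 19.5% to 42.4%, the highest again in the untreated wild-type library. The folds without cycling-like clusters were not run on that division. Of the macrophage-like calls 34 of 42 held in every setting run, and of the melanoma-like calls 24 of 43. With each library left out, 36 to 39 and 35 to 41 calls were made. The class contrasts were paired by library, and without that block 38 of 42 macrophage-like, 36 of 43 melanoma-like and 2 of 19 cycling calls were kept. No paired analysis was possible because each group is 1 library, as far as the comparisons between libraries go. Depth limits members below 20 CPM, and macrophage-like and melanoma-like values of the treated libraries rest on 49 to 182 cells.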
